A study of Rattus norvegicus with 12 samples.

Results

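Annexins and their partner S100a10 were followed as 8 genes, Anxa1 to Anxa7 and S100a10, in neurons taken by laser capture from 4 regions of the rat brain. The members were chosen by gene symbol, and every probe set annotated to 1 of these symbols was kept, dim ones included, which gave 12 of the 15923 probe sets on the array. The neurons came from 3 untreated Fisher 344/BN F1 rats aged 6 months, and each rat gave 1 Affymetrix RAE230A array per region, 12 arrays in all. The vulnerable group (VUL), whose neurons are sensitive to oxidative stress, comprised hippocampal CA1 pyramidal neurons and cerebellar granule (CbG) neurons, with 3 arrays each. The resistant group (RES) comprised hippocampal CA3 pyramidal neurons and neurons of the frontal cortex (CTX), taken from its layers IV to VI, with 3 arrays each. The comparison of both groups asked which genes distinguish neurons of unequal sensitivity to stress while the animals are at rest. Captured cell layers can also carry other cell types, and in the captured material fewer cells of a type and less RNA per cell cannot be told apart.

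Annexins are soluble proteins that bind acidic membrane phospholipids when calcium rises, and they take part in vesicle traffic, membrane repair and the linking of membranes to the cytoskeleton. S100a10, also called p11, belongs to the S100 family of calcium-binding proteins but is locked in its active shape without calcium, and it binds Anxa2 in a complex at the plasma membrane that helps to place ion channels and receptors there. In the brain S100a10 is known for its binding to serotonin receptors, while several annexins are best known from glia, vessels and blood cells.

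The measure was the MAS5 signal, a linear intensity that the authors scaled to 1 target per array. Array medians lay between 144.5 and 198.75. Only 5 member probe sets lay above the median of their array in at least 8 of 12 arrays, the condition for entry into the tests, which 7535 probe sets met. These were 1 each of Anxa3, Anxa5, Anxa6, Anxa7 and S100a10. A pair of arrays, CbG replicate 3 and CA3 replicate 3, went against their labels. Gabra6, a receptor subunit of cerebellar granule neurons, had signals of 3379.3, 1282.9 and 15.4 in replicates 1 to 3 of CbG and of 5.6, 38.6 and 2567.6 in those of CA3. Over all 15923 probe sets, controls included, the closest array to the one labelled CbG replicate 3 was CA3 replicate 1 (r = 0.933). The closest array to the one labelled CA3 replicate 3 was CbG replicate 1 (r = 0.932). The main comparisons are therefore given as labelled and with these 2 labels exchanged, and other values with the labels exchanged unless stated. The exchange rests on measured values and not on a record of the experiment. The deposited labels do not show which arrangement the study itself used. Markers of CA1 pyramidal neurons, summed over the list, reached 23875.6 to 27556.6 in CA1 arrays and 467.0 to 5498.5 in all others. The 5498.5 belonged to the array labelled CbG replicate 3, against 2227.5 and 1424.8 in CA3 replicates 1 and 2. Markers of deep cortical layers were no higher in CTX (5365.5 to 6520.0) than in CA1 arrays (6819.5 to 8491.3). Where signals of a gene are listed below, they stand in the order of replicates 1, 2 and 3 as labelled, and the exchange moves the last CbG value to CA3 and the last CA3 value to CbG.

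**Figure D1:**
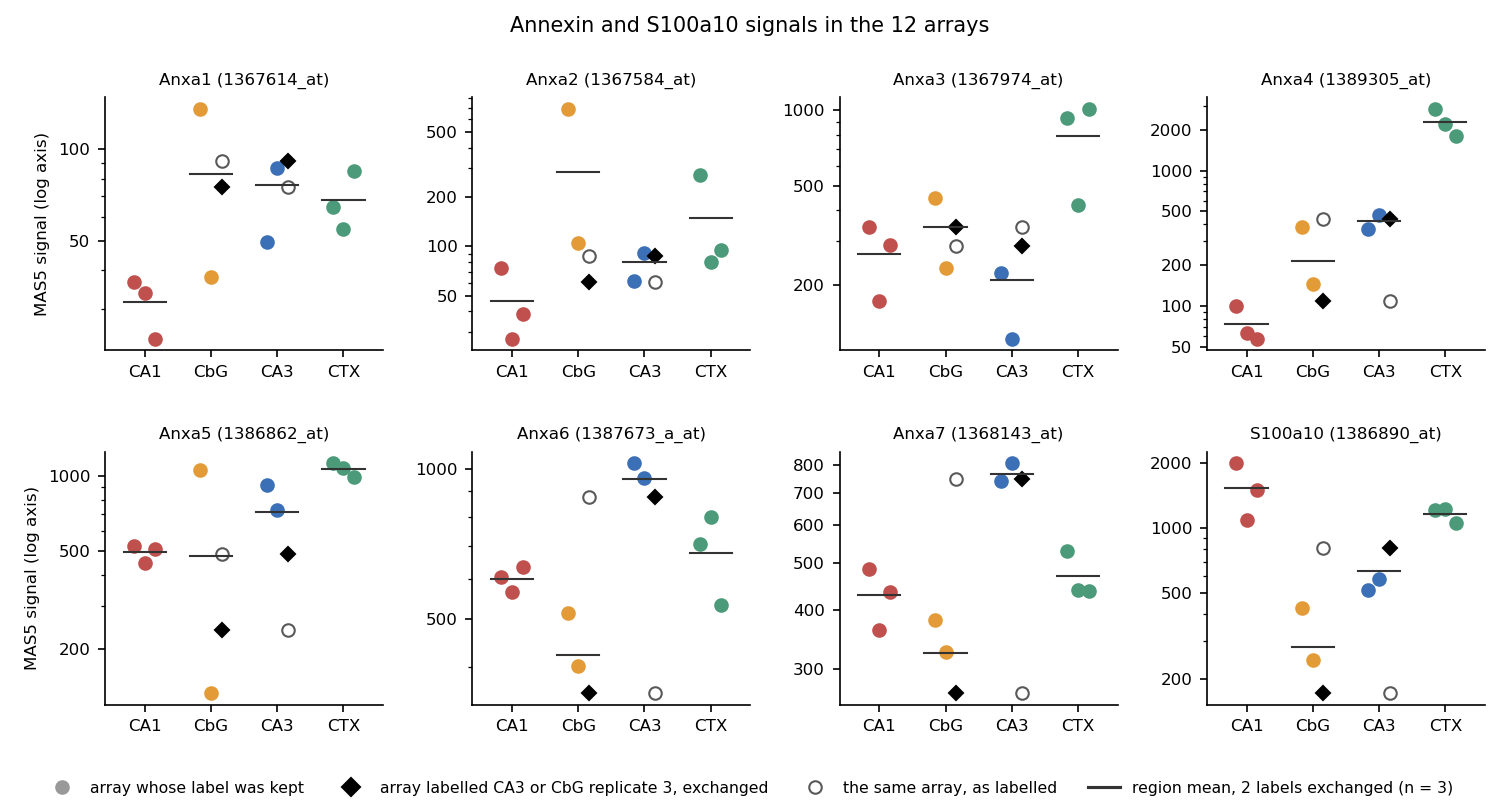
MAS5 signals (log axis) of 1 probe set per gene in each array, by region. Filled circles are arrays whose label was kept, diamonds the doubtful pair in exchanged places, open circles that pair as labelled, and lines the region means with the labels exchanged (n = 3). Anxa4 lay between 1799.1 and 2862.0 in CTX and at or below 466.1 in every other array, and S100a10 lay between 1091.6 and 2008.4 in CA1 and at or below 813.7 in CbG and CA3.

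The choice of labels decided how many members differed. As labelled, 0 of the 5 tested probe sets passed an adjusted p of 0.05 and a 1.5-fold difference in VUL minus RES, in CA1 minus CA3 or in CbG minus CTX (limma with the rat as a block, Benjamini-Hochberg). The shares of all 7535 tested probe sets that passed were 0% in VUL minus RES (743 at an unadjusted p under 0.05), 1.3% in CA1 minus CA3 and 0.624% in CbG minus CTX. After the exchange, 2 of 5 passed in VUL minus RES, 3 of 5 in CA1 minus CA3 and 3 of 5 in CbG minus CTX, beside 18.5%, 13.5% and 34% of all tested probe sets. Both calls in VUL minus RES and all 3 in CbG minus CTX were lower in VUL and in CbG neurons, beside 8.29% and 13% of all tested probe sets called in that direction. Over the 10 arrays left without the doubtful pair, 3, 2 and 2 of 5 passed in these comparisons, beside 17.8%, 10.5% and 25.9%. A moderated F test over the 4 regions called 1 of 5 as labelled, Anxa3 (adjusted p = 0.042), beside 3.2% of all tested. It called 5 of 5 with the labels exchanged, beside 67.9%, and 4 of 5 over 10 arrays, beside 60.7%. Under the exchange, the median difference of the 5 members was -0.58 on the log2 scale in VUL minus RES, against 0.08 over all tested probe sets, and -0.97 in CbG minus CTX, against 0.18.

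Anxa4, which binds membranes of secretory epithelia, had the widest range of region means among the members. Its probe set 1389305_at had signals of 100.1, 63.5 and 57.1 in CA1, 385.7, 144.0 and 434.9 in CbG, 366.9, 466.1 and 109.2 in CA3 and 2862.0, 2198.5 and 1799.1 in CTX arrays. The CTX arrays stood above all others and the CA1 arrays below all others under both arrangements. Since it exceeded the array median in only 7 of 12 arrays, it was outside the main test and was fitted with all 15866 probe sets that are not controls. In that fit with the labels exchanged, the signal was 8.01-fold lower in VUL than in RES neurons (log2 difference -3.00 ± 0.23 (SE), adjusted p = 0.000715), a comparison in which 8.63% of all probe sets were called. It was lower in CA1 than in CA3 (-2.57 ± 0.33, adjusted p = 0.0103), beside 2.93% of all probe sets called, and lower in CbG than in CTX (-3.44 ± 0.33, adjusted p = 0.000688), beside 13.1%. The first of these calls did not hold without rat 3 (-2.88, adjusted p = 0.0591), and the CA1 minus CA3 call did not hold without CA1 replicate 2, CA3 replicate 2, any 1 rat or both doubtful arrays, with values of -2.91 to -2.34 and an adjusted p of up to 0.166. As labelled, VUL minus RES was -2.35 with a 95% interval of -3.31 to -1.39 (adjusted p = 0.206). Anxa4 was lower in VUL in 6 of 6 within-rat pairs under both arrangements. An exact permutation of the regions within rats gave an unadjusted two-sided p of 0.0463 as labelled and of 0.00926 with the labels exchanged, the smallest these permutations can give. The 6 pairs are 2 pairs of regions in 3 rats and not 6 independent units. A steady difference between single regions can also give a small p here, so it does not speak to vulnerability as such. The study had picked Anxa4 on these same arrays, so its direction here is not independent evidence.

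After the exchange, Anxa4 averaged 73.6 ± 23.2 in CA1, 213 ± 151 in CbG, 423 ± 50.7 in CA3 and 2287 ± 537 in CTX arrays (SD, n = 3 each). From high to low the order of regions was CTX, CA3, CbG and CA1. Each neighbour in that order differed in the fit of all probe sets, by -2.09 ± 0.33 for CA3 minus CTX (adjusted p = 0.0101), by -1.35 ± 0.33 for CbG minus CA3 (adjusted p = 0.0218) and by -1.22 ± 0.33 for CA1 minus CbG (adjusted p = 0.0354). Each of these was lost with some array or rat left out. For CA3 minus CTX this was any 1 rat (adjusted p up to 0.111), and for CbG minus CA3 it was CA3 replicate 2 or 3, CbG replicate 2 or 3, rat 2, rat 3 or both doubtful arrays (adjusted p up to 0.21). For CA1 minus CbG it was any CA1 or CTX array, CbG replicate 1 or 2, any rat or both doubtful arrays (-1.41 to -0.84, adjusted p up to 0.152). CA1 minus CTX, free of both doubtful arrays, was -4.66 ± 0.33 (adjusted p = 0.000575) and passed as labelled too (-4.66 ± 0.59, adjusted p = 0.0238), beside 0.637% of all probe sets called as labelled. As labelled that call was lost without any CA1 or CTX array, CA3 replicate 1 or any rat (-4.72 to -4.54, adjusted p up to 0.417), and with the labels exchanged without rat 1 or rat 3 (adjusted p up to 0.0613). As labelled, CbG and CA3 arrays were level (-0.038, 95% interval -1.39 to 1.32). The other probe set of Anxa4, 1368908_at, was dim throughout, between 19.9 and 132.7. It too was highest in CTX, at 93.7, 93.7 and 132.7, and averaged 42.0 ± 21.4 in VUL and 81.6 ± 31.4 in RES arrays with the labels exchanged (SD, n = 6 each), but it did not pass in the fit of all probe sets (-0.94 ± 0.32, adjusted p = 0.113). Over the 12 arrays the centred log2 signals of both probe sets correlated with r = 0.505.

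The CTX arrays, where Anxa4 was highest, also held the most signal from oligodendrocytes and microglia. Summed over the 9 measured oligodendrocyte markers of 10 listed, the signal ranged from 4445.3 to 6910.9 in CA1, 14411.0 to 20941.6 in CbG, 10192.7 to 13602.9 in CA3 and 29347.7 to 44766.8 in CTX arrays with the labels exchanged. The sum of 10 microglial markers ranged from 1022.6 to 1818.1 in CA1, 1772.9 to 2324.6 in CbG, 832.0 to 2114.4 in CA3 and 3251.3 to 7663.6 in CTX arrays. For the 8 measured endothelial markers of 10 listed it ranged from 705.0 to 1185.6 in CA1, 2139.2 to 3459.0 in CbG, 1188.9 to 1529.6 in CA3 and 2697.2 to 4796.6 in CTX arrays. CTX replicate 2 (2697.2) thus lay below CbG replicate 1 (3459.0). Between CbG and CA3 these oligodendrocyte and endothelial sums ran opposite to Anxa4, as they were higher in all 3 CbG arrays. Within CTX the oligodendrocyte sums also ran opposite to Anxa4. They were 29347.7, 42527.4 and 44766.8 in replicates 1 to 3, where Anxa4 had 2862.0, 2198.5 and 1799.1. The part of such cells in the Anxa4 difference was not tested.

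**Figure D2:**
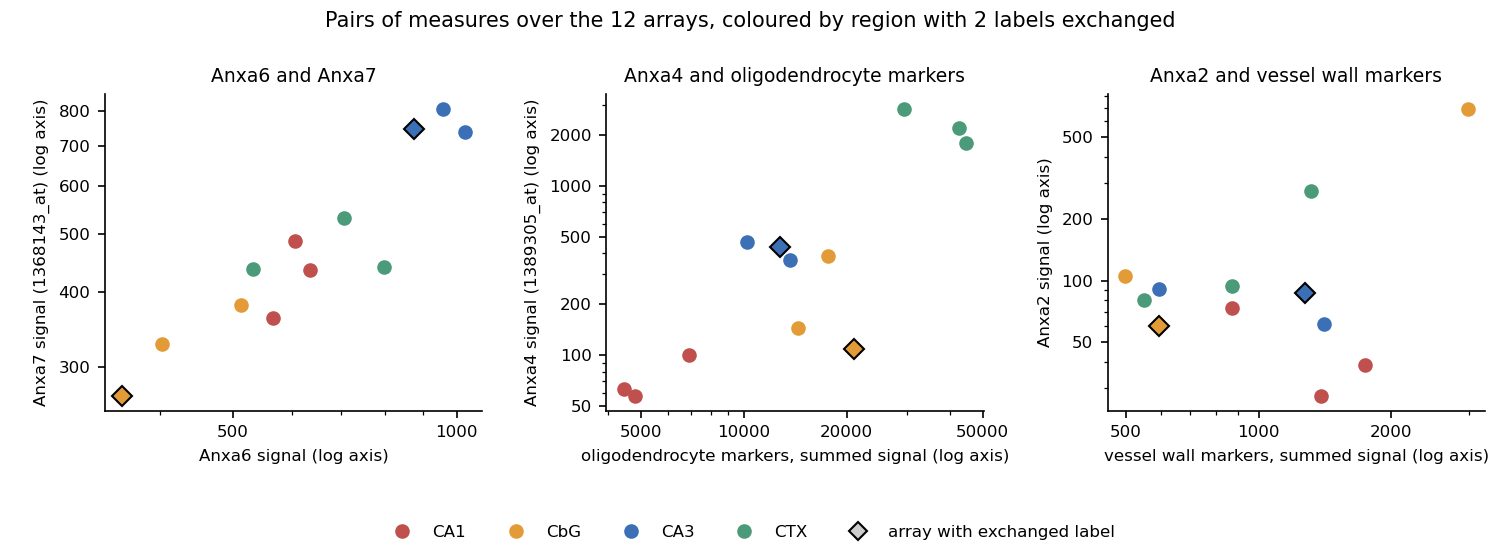
Signals in the 12 arrays on log axes, coloured by region with 2 labels exchanged, with diamonds for the exchanged arrays. Anxa6 and Anxa7 varied together (r = 0.944 on centred log2 signals), the 3 CTX arrays were high in both Anxa4 and oligodendrocyte markers, and CbG replicate 1 was highest in both Anxa2 and vessel wall markers.

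Promoters of the members called lower in VUL than in RES neurons with the labels exchanged, Anxa4, Anxa5 and Anxa7, are printed here as those of the annexins behind these calls. Their signals did not move as 1 over the 12 arrays (r = 0.597 for Anxa4 and Anxa5, 0.418 for Anxa5 and Anxa7 and 0.147 for Anxa4 and Anxa7, centred log2). RefSeq sequence on the GRCr8 assembly, 250 bases before to 50 after the gene start, was matched for 6 of the 8 members (not Anxa6 and S100a10). Capitals mark the GC box (GGGCGG or CCGCCC on the other strand), a common motif of CpG-rich promoters. Anxa4 lies at chr4:120798464-120798763 (minus strand), Anxa5 at chr2:121272647-121272946 (minus strand) and Anxa7 at chr15:3870790-3871089 (plus strand).
Anxa4: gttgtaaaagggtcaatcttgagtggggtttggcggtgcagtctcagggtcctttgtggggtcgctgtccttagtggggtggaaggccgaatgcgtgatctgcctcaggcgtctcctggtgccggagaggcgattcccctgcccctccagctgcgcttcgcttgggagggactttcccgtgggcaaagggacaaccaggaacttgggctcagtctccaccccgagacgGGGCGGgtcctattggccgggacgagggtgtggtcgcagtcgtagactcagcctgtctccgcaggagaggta
Anxa5: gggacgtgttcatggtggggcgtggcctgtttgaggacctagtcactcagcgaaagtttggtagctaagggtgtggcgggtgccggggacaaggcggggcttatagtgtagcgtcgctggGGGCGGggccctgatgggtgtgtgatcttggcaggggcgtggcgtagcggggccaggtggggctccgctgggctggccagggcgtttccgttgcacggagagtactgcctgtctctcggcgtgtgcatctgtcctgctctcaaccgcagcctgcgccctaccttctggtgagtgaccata
Anxa7: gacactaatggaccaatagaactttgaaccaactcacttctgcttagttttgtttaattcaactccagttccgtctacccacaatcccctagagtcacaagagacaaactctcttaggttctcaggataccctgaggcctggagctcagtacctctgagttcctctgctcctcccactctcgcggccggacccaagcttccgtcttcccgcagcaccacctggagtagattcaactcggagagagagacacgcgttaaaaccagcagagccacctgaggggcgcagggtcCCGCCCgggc
Each of these windows held 1 GC box, which stood on either strand in 33.1% of 33469 promoters of the same length. Their GC content was 62.3%, 64.3% and 54.3%. None of the 3 held the letters of a TATA box (TATAAA, in 14.2% of all promoters), an E-box (CACGTG, 6.42%), an AP-1 site (TGACTCA, 4.63%) or a CRE (TGACGTCA, 1.83%) on either strand. These matches describe the letters only.

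Anxa5, which binds phosphatidylserine exposed on dying cells and is used to stain them, was lower in VUL than in RES neurons with the labels exchanged. Its signals were 522.8, 447.3 and 505.5 in CA1, 1051.4, 133.0 and 484.2 in CbG, 920.3, 730.7 and 238.2 in CA3 and 1125.5, 1076.2 and 990.5 in CTX arrays. The CA1 arrays lay close together, and so did the CTX arrays at a higher level. By contrast, CbG replicate 1 stood at the level of CTX and CbG replicate 2 was the lowest of all 12. After the exchange, Anxa5 averaged 483 ± 319 in VUL and 888 ± 241 in RES arrays (SD, n = 6 each), a log2 difference of -1.02 ± 0.30 (SE, adjusted p = 0.0196). CbG minus CTX was -1.54 ± 0.42 (adjusted p = 0.0115), and CA1 minus CA3 did not pass (-0.49, 95% interval -1.40 to 0.41). The VUL minus RES call was lost without CA1 replicate 1, CA3 replicate 2, CTX replicate 2, CTX replicate 3, rat 2 or rat 3, with values of -1.14 to -0.60 and an adjusted p of up to 0.104. The CbG minus CTX call was lost without CbG replicate 2, CTX replicate 2, CTX replicate 3, rat 2, rat 3 or both doubtful arrays, with values of -1.48 to -0.88. As labelled, VUL minus RES was -0.68 with a 95% interval of -1.69 to 0.32. From high to low the exchanged order was CTX, CA3, CA1 and CbG, and neighbours in it did not differ beyond their spread (adjusted p = 0.593 for CA3 minus CTX, 0.488 for CA1 minus CA3 and 0.167 for CA1 minus CbG). Purkinje cell markers summed to 20242.5 in CbG replicate 1 and 44631.5 in CbG replicate 2, but to 5024.5 in the CA3 array of the doubtful pair, and their part in the spread of Anxa5 was not tested.

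Anxa6 and Anxa7 had 1 pattern, highest in CA3 and lowest in CbG neurons once the labels were exchanged. Anxa6 is the large annexin with a duplicated core, tied to endosomes and cholesterol traffic, and Anxa7, or synexin, was found as a promoter of granule fusion in secretory cells. Anxa6 had signals of 605.7, 565.9 and 634.8 in CA1, 513.5, 402.5 and 877.0 in CbG, 1025.9, 958.6 and 355.3 in CA3 and 705.1, 798.7 and 533.1 in CTX arrays. Anxa7 (1368143_at) had signals of 486.6, 362.0 and 435.7 in CA1, 380.8, 326.9 and 748.1 in CbG, 740.3, 808.3 and 267.7 in CA3 and 531.0, 439.6 and 436.7 in CTX arrays. As labelled, the last CbG value was the highest of its region and the last CA3 value the lowest of all 12 arrays for both genes. With the exchange, the CA3 arrays of each gene stood above the other 9 and the ranges of CbG and CA3 were far apart. The dimmer Anxa7 probe set 1368142_at ran alike (r = 0.881 between both sets), with 167.8, 118.5 and 172.9 in CA1, 75.7, 78.2 and 221.0 in CbG, 278.3, 252.9 and 40.0 in CA3 and 162.7, 142.5 and 46.8 in CTX arrays. Over the 12 arrays, a measure that uses no labels, Anxa6 correlated with these Anxa7 probe sets with r = 0.944 and 0.931 (centred log2 signals). The same 12 regional samples of 3 rats stand behind both values.

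Under the exchange, Anxa7 averaged 377 ± 77.7 in VUL and 617 ± 168 in RES arrays (SD, n = 6 each), a difference of -0.60 ± 0.13 (SE, adjusted p = 0.00396) that was 1.52-fold. For Anxa6 the averages were 513 ± 113 in VUL and 816 ± 179 in RES arrays, and the difference of -0.58 ± 0.14 (adjusted p = 0.00653) lay just under the 1.5-fold mark. Both genes were lower in VUL in 6 of 6 within-rat pairs, and the exact permutation within rats gave unadjusted two-sided p of 0.0926 for Anxa7 and 0.0741 for Anxa6. The limits given for Anxa4 on these pairs and permutations hold here too. In CA1 minus CA3, Anxa7 differed by -0.86 ± 0.19 (adjusted p = 0.00783) and Anxa6 by -0.67 ± 0.20 (adjusted p = 0.0372). In CbG minus CTX neither passed, with -0.35 (95% interval -0.76 to 0.05) for Anxa7 and -0.49 (-0.91 to -0.07, adjusted p = 0.0634) for Anxa6. Between the remaining regions CA3 stood apart, as CbG minus CA3 was -1.39 ± 0.19 for Anxa7 (adjusted p = 4.25e-05) and -1.33 ± 0.20 for Anxa6 (adjusted p = 9.34e-05), in a comparison with 45.5% of all tested probe sets called. CA3 minus CTX was 1.04 ± 0.19 for Anxa7 (adjusted p = 0.0011) and 0.84 ± 0.20 for Anxa6 (adjusted p = 0.00522), beside 36.3%. Of these 4 calls, only that of Anxa6 in CA3 minus CTX was lost with an array or rat left out, namely rat 1 (0.82, adjusted p = 0.0672). CA1 minus CbG was called for Anxa6 (0.66) but not for Anxa7, beside 40.6% of all tested probe sets. That Anxa6 call was lost without CA1 replicate 3, rat 1, rat 3 or both doubtful arrays (adjusted p up to 0.105). CA1 and CTX did not differ beyond their spread (0.18 for Anxa7, 95% interval -0.22 to 0.59, and 0.17 for Anxa6, -0.26 to 0.59). On uncentred mean signals CTX stood above CA1 for both genes, at 428 ± 62.6 in CA1 and 469 ± 53.6 in CTX for Anxa7 and at 602 ± 34.6 in CA1 and 679 ± 135 in CTX for Anxa6 (SD, n = 3 each).

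These calls were close to their limits. That of Anxa7 in VUL minus RES went under 1.5-fold without CA1 replicate 2, CA3 replicate 2, CA3 replicate 3 (so labelled), CTX replicate 1 or rat 2 (-0.58 to -0.52, adjusted p at most 0.0239), and its CA1 minus CA3 call was lost without CA1 replicate 2, CA3 replicate 2, rat 1 or rat 2 (adjusted p up to 0.0904). The CA1 minus CA3 call of Anxa6 was lost without CA1 replicate 1 or 2, CA3 replicate 1 or 2, CTX replicate 1, the array labelled CbG replicate 3, any 1 rat or both doubtful arrays, with an adjusted p of up to 0.297. As labelled, VUL minus RES was -0.12 (95% interval -0.91 to 0.67) for Anxa7 and -0.16 (-0.91 to 0.60) for Anxa6, and CA1 minus CA3 was -0.37 (-1.48 to 0.74) for Anxa7 and -0.24 (-1.31 to 0.82) for Anxa6. The study lists Anxa5 and Anxa6 among genes it selected on these arrays, so neither direction is independent evidence.

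**Figure D3:**
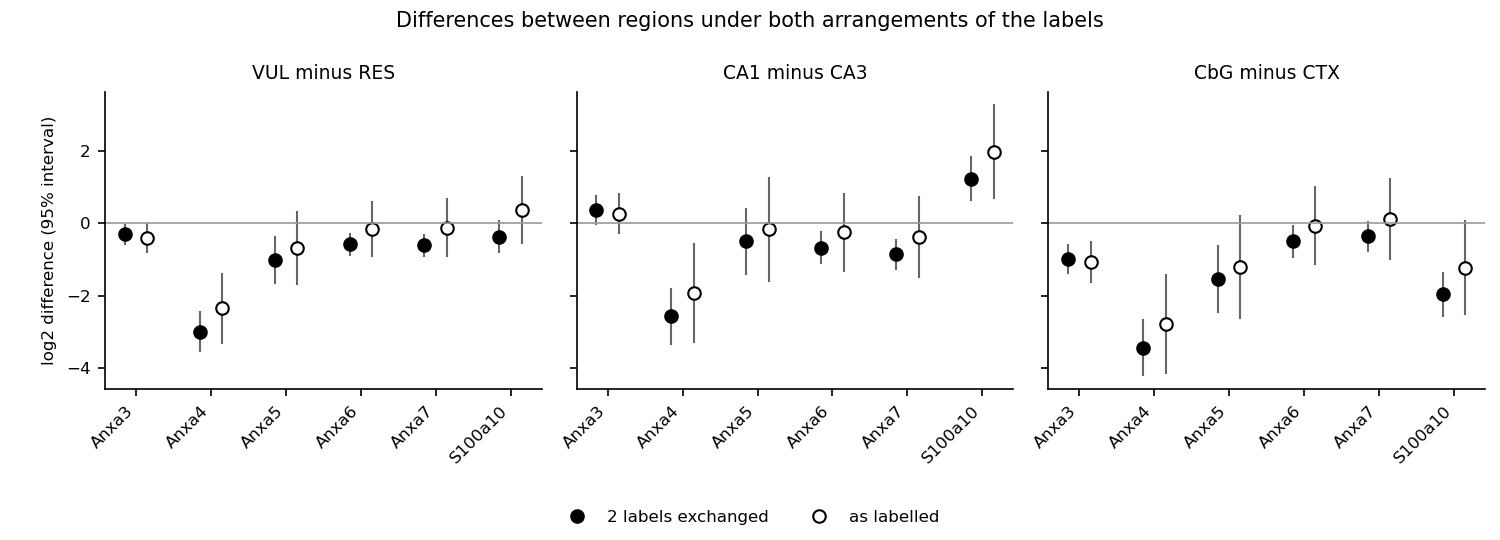
Log2 differences with 95% intervals for the 5 tested probe sets and for Anxa4 (1389305_at, fitted with all probe sets), with the labels exchanged (filled) and as labelled (open). The intervals of Anxa6 and Anxa7 in VUL minus RES span 0 as labelled and lie below it with the labels exchanged, and S100a10 lies above 0 in CA1 minus CA3 and below 0 in CbG minus CTX with the labels exchanged.

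S100a10 ran in opposite directions in the 2 pairs of regions. Its signals were 2008.4, 1091.6 and 1504.5 in CA1, 428.8, 246.3 and 813.7 in CbG, 516.1, 583.1 and 172.2 in CA3 and 1216.9, 1224.1 and 1064.4 in CTX arrays. The CA1 arrays did not overlap with those of CA3, nor the CbG arrays with those of CTX, under either arrangement. With the labels exchanged, S100a10 was higher in CA1 than in CA3 (1.24 ± 0.28 (SE), 2.37-fold, adjusted p = 0.00879) and lower in CbG than in CTX (-1.96 ± 0.28, 3.90-fold, adjusted p = 0.000126). The difference between these differences was 3.21 ± 0.39 on the log2 scale (adjusted p = 4.99e-05), in a test that called 24% of all probe sets. VUL minus RES was -0.36 (95% interval -0.78 to 0.06, adjusted p = 0.18), with averages of 909 ± 750 in VUL and 903 ± 312 in RES arrays (SD, n = 6 each), and 3 of 6 within-rat pairs were higher in VUL. As labelled, CA1 minus CA3 was 1.98 (95% interval 0.69 to 3.27, adjusted p = 0.171) and CbG minus CTX was -1.23 (-2.52 to 0.06). The difference between them stayed at 3.21 by construction, since CbG and CA3 enter it with the same weight and the exchange cannot change it. Only its standard error was wider, at 0.80 (adjusted p = 0.0881), in a test that called 2.07% of all probe sets. Over 10 arrays this difference was 3.15 ± 0.42 (adjusted p = 0.000329), beside 14.8% called. The CA1 minus CA3 call was lost without CA1 replicate 1, CA3 replicate 1 or rat 1 (0.89 to 1.09, adjusted p up to 0.147).

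Once exchanged, S100a10 averaged 1535 ± 459 in CA1, 282 ± 132 in CbG, 638 ± 156 in CA3 and 1168 ± 90.2 in CTX arrays (SD, n = 3 each). From high to low the order was CA1, CTX, CA3 and CbG. CA1 minus CTX did not pass (0.67, 95% interval 0.08 to 1.27, adjusted p = 0.0706), in a comparison with 34.1% of all tested probe sets called, and neither did CA3 minus CTX (-0.57, -1.17 to 0.03, adjusted p = 0.116). CbG minus CA3 did (-1.39 ± 0.28, adjusted p = 0.000962). Between both VUL regions, CA1 minus CbG was 2.64 ± 0.28 (adjusted p = 4.59e-06), where 40.6% of all tested probe sets were called. Anxa2, its binding partner, did not share this pattern, as it was below the array median in all CA1 arrays.

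Anxa3, an annexin of neutrophils and of microglia, was highest in the cortex. Its probe set 1367974_at had signals of 340.1, 172.3 and 288.9 in CA1, 445.5, 234.5 and 285.8 in CbG, 223.2, 121.8 and 341.8 in CA3 and 932.1, 416.7 and 1015.5 in CTX arrays. Rat 2 gave the lowest signal in every region under both arrangements, so that the lowest CTX array overlapped with the highest CbG array of another rat. With the labels exchanged, Anxa3 was lower in CbG than in CTX (-0.97 ± 0.18 (SE), 1.96-fold, adjusted p = 0.00101), and CA1 minus CA3 did not pass (0.37, 95% interval -0.02 to 0.75). The difference between these differences was 1.34 ± 0.25 (adjusted p = 0.00185), which was lost without rat 1 (1.20, adjusted p = 0.0604) and without the replicate block (adjusted p = 0.0683). VUL minus RES was -0.30 (95% interval -0.58 to -0.03, adjusted p = 0.0871). Average signals were 267 ± 86.0 in CA1, 341 ± 106 in CbG, 210 ± 82.8 in CA3 and 788 ± 324 in CTX arrays (SD, n = 3 each), in the order CTX, CbG, CA1 and CA3 from high to low. Of neighbours in this order, only CbG and CTX differed beyond their spread (adjusted p = 0.336 for CA1 minus CbG and 0.206 for CA1 minus CA3), while CbG minus CA3 was 0.59 ± 0.18 (adjusted p = 0.0147). As labelled, CbG minus CTX was -1.07 (95% interval -1.61 to -0.52, adjusted p = 0.105).

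Anxa3 also gave the only calls among the 5 tested members between single regions as labelled. It was lower in CA1 than in CTX (-1.19 ± 0.24 (SE), adjusted p = 0.0288), a comparison without either doubtful array in which 6.61% of all tested probe sets were called as labelled, and lower in CA3 than in CTX (-1.47 ± 0.24, adjusted p = 0.0273), beside 1.94%. With the labels exchanged, these were -1.19 ± 0.18 (adjusted p = 0.000296) and -1.56 ± 0.18 (adjusted p = 4.96e-05), and both were kept whichever array or rat was left out. As labelled, the CA1 minus CTX call was lost without any CA1 or CTX array, rat 1 or rat 2, and the CA3 minus CTX call without any CA1 or CTX array, CA3 replicate 1 or 2, rat 1 or rat 2, with values of -1.56 to -1.12 and an adjusted p of up to 0.483. Neither passed as labelled in the fit of all probe sets (adjusted p = 0.095 and 0.0836). The exchanged CbG minus CA3 call was lost without CA3 replicate 1, CbG replicate 2, rat 1 or rat 2 (0.48 to 0.52, adjusted p up to 0.156).

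The other Anxa3 probe sets only partly followed. Set 1367975_at stayed between 2.3 and 62.3 in all arrays, and its 3 highest signals were those of CTX (62.3, 44.3 and 42.7). Fitted with all probe sets, its CbG minus CTX difference was -3.24 with the labels exchanged (adjusted p = 0.0458), but this was 0.078 when signals under 50 were set to 50. The call was also lost without CA1 replicate 2, CA3 replicate 2 or 3, CbG replicate 1 or 2, any CTX array, any rat or both doubtful arrays (adjusted p up to 0.24). Set 1380751_at had 178.5, 187.3 and 65.6 in CbG and 146.2, 138.4 and 183.8 in CTX, against 32.2 to 67.9 in CA1 and 42.3 to 82.6 in arrays labelled CA3. Over the 12 arrays these sets correlated with 1367974_at with r = 0.401 and 0.612. In the fit of all probe sets with the labels exchanged, the F test called 3 of the 7 dim member probe sets, Anxa3 1380751_at (adjusted p = 0.0438), Anxa4 1389305_at (adjusted p = 0.000318) and Anxa7 1368142_at (adjusted p = 0.0202), beside 28.2% of all 15866. Microglial marker sums, as given for Anxa4, were likewise highest in the CTX arrays. Mean sums of astrocyte, endothelial and oligodendrocyte markers were also highest in CTX. Within CTX, the microglial, astrocyte and endothelial sums were lowest in replicate 2, as Anxa3 was, and the oligodendrocyte sum was lowest in replicate 1. The part of any of these cells in the Anxa3 difference was not tested.

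Anxa1 and Anxa2 were dim. Anxa1, an anti-inflammatory protein induced by glucocorticoids, stayed below the array median in 12 of 12 arrays, with 36.8, 33.8 and 23.9 in CA1, 135.4, 38.0 and 91.5 in CbG, 49.5, 86.9 and 75.2 in CA3 and 64.5, 54.6 and 84.4 in CTX arrays. All CA1 arrays lay below those of the other regions. Anxa2, the partner of S100a10 and a receptor for plasminogen and its activator on vessel walls, exceeded the array median in 2 arrays. Its signals were 73.5, 27.2 and 38.6 in CA1, 690.6, 105.3 and 87.2 in CbG, 61.2, 90.9 and 60.1 in CA3 and 272.8, 80.6 and 94.2 in CTX arrays. The high arrays were replicate 1 of CbG and replicate 1 of CTX, both of rat 1. The same arrays carried the most of Col1a2, a collagen of vessel walls and meninges, with 1475.5 in CbG replicate 1 and 242.9 in CTX replicate 1, against 9.2 to 103.6 in the other 10. They also carried the most of Myl9, a light chain of smooth muscle myosin, with 340.8 and 317.4, against 6.9 to 198.0 in the other 10. Of the 10 listed vessel wall and meningeal markers, 6 had their 2 highest signals in these arrays. Others ran differently, as Dcn was highest in CA1 replicate 3 (1150.3, against 71.6 in CTX replicate 1) and Lum in CA3 replicate 1 (948.9, against 81.5). Summed over the 10, the signal was 2985.1 in CbG replicate 1, 1313.2 in CTX replicate 1 and 497.6 to 1748.0 in the others, so that CTX replicate 1 lay below CA1 replicates 2 and 3 (1385.7 and 1748.0) and CA3 replicate 1 (1409.1). The part of such cells in the Anxa2 signal was not tested. Fitted with all probe sets and the labels exchanged, neither passed in VUL minus RES (-0.47, adjusted p = 0.399, for Anxa1 and -0.17, adjusted p = 0.858, for Anxa2).

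By centred log2 signal over the 12 arrays, which uses no labels, the patterns most like each tested member were found among all tested genes. Those of Anxa3 were Shisa9 (r = 0.919), Sdc4 (0.886) and Slc15a2 (0.879), and those of Anxa5 were Sema5a (0.878), Crtac1 (0.810) and Cplx1 (0.802). For Anxa6 they were Vps41 (0.962), Ypel5 (0.958) and Gyg1 (0.956). Gyg1 (0.971) also led the list of Anxa7, followed by Hspa4 (0.969) and Olfml2b (0.961). For S100a10 they were Fhl2 (0.959), Rapgef5 (0.950) and Dapk1 (0.949). Anxa5 thus had the loosest likeness of the 5, and these coefficients describe 12 arrays of 3 rats only.

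Other genes of these families and pathways were counted with the labels exchanged, where 18.5% of all tested probe sets were called in VUL minus RES, 13.5% in CA1 minus CA3 and 34% in CbG minus CTX. The counts of each list stand beside these shares as a description, with 1 to 8 tested genes a list. Of 5 further annexins, 2 were measured and 1 was tested, Anxa11, which tethers RNA granules to lysosomes. Its signals were 3138.4, 3695.7 and 3026.5 in CA1, 754.2, 646.9 and 6814.0 in CbG, 4971.3, 5819.4 and 797.0 in CA3 and 2522.5, 2846.9 and 2128.8 in CTX arrays. Like Anxa6 and Anxa7 it was highest in CA3 and lowest in CbG with the labels exchanged, and it differed by -1.21 ± 0.14 in VUL minus RES (SE, adjusted p = 3.63e-05), by -0.84 ± 0.20 in CA1 minus CA3 (adjusted p = 0.0118) and by -1.58 ± 0.20 in CbG minus CTX (adjusted p = 4.09e-05). As labelled these differences were -0.19, 0.19 and -0.56, and none passed. The CA1 minus CA3 call was lost without CA1 replicate 3, CbG replicate 3 (so labelled), rat 1, rat 3 or both doubtful arrays, with an adjusted p of up to 0.1. Of 16 other S100 genes, 12 were measured and 3 tested (S100a13, S100a16 and S100b), and 0 of 3 was called in any of these 3 comparisons. S100b, a marker of astrocytes, differed by -0.46 in VUL minus RES (adjusted p = 0.0233), under the 1.5-fold mark. The 9 measured astrocyte markers of 10 listed summed to 11401.0 to 15758.9 in CA1, 18387.6 to 27613.9 in CbG, 9274.0 to 16174.3 in CA3 and 19044.6 to 33404.4 in CTX arrays, and their part in S100b was not tested. The median of the 3 was -0.45, against 0.08 over all tested probe sets.

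Among 11 partners of S100a10 and Anxa2, 5 were tested, and in VUL minus RES 1 was higher, the chromatin remodeller Hltf (0.60, adjusted p = 0.00964), and 1 lower, Chn1, a Rac regulator (-1.86, adjusted p = 6.04e-05). Hltf was also called higher in CbG than in CTX (1.37). In CA1 minus CA3, 0 of the 5 were called, and Hltf was -0.35 there as labelled. Chn1 had 350.2, 879.7 and 10031.3 in CbG and 8171.7, 10129.6 and 180.1 in CA3 arrays as labelled, and its CA1 minus CA3 difference with the labels exchanged was 0.0078. Of the serotonin receptors in this list, Htr1b lay between 56.6 and 156.4, below the array median in all 12 arrays. Of 10 plasminogen genes 4 were tested, with 0 called in VUL minus RES and 1 in CA1 minus CA3, the neuronal protease inhibitor Serpini1 (0.64, adjusted p = 0.0394). Of 25 prostaglandin genes 4 were tested. Ptgs2, the inducible cyclooxygenase, was lower in VUL than in RES (-0.93, adjusted p = 0.00497), in CA1 than in CA3 (-1.04, adjusted p = 0.0343) and in CbG than in CTX (-0.82, adjusted p = 0.0453), but as labelled the first of these was -0.086 (adjusted p = 0.984). The study had selected Ptgs2 on these arrays too, so its direction is not independent evidence. Ptgds, a prostaglandin synthase of meninges and oligodendrocytes, was lower in CA1 than in CA3 (-1.73, adjusted p = 0.0427), and its signal of 15453.5 in CbG replicate 1 was the highest of all arrays. Of 22 genes of membrane repair and calcium-dependent membrane binding 8 were tested, with 0 called in VUL minus RES. Their calls were all copines, which bind membranes when calcium rises. Cpne5 and Cpne8 ran as S100a10 did, higher in CA1 than in CA3 (1.33, adjusted p = 0.00271, and 0.97, adjusted p = 0.0149) and lower in CbG than in CTX (-2.10, adjusted p = 2.63e-05, and -1.43, adjusted p = 0.000437). Cpne9 was lower in CA1 than in CA3 (-1.35, adjusted p = 0.000609). Cpne9 was also the 1 gene of all these lists called as labelled, in the same comparison (-1.54, adjusted p = 0.0426), a call that was lost without any CA1, CA3 or CTX array, CbG replicate 2, rat 1 or rat 2 (-1.70 to -1.28, adjusted p up to 0.561).

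Part of these list calls rested on single arrays or rats, named here by their deposited labels. Hltf in VUL minus RES was lost without CA1 replicate 3, CA3 replicate 1 or 3, CTX replicate 3, rat 1, rat 3 or both doubtful arrays, with values of 0.41 to 0.62. Serpini1 was lost without any CA1 array, CA3 replicate 1 or 2, CbG replicate 3, CTX replicate 2, any rat or both doubtful arrays (adjusted p up to 0.218). Ptgs2 in CA1 minus CA3 was lost without CA1 replicate 1 or 3, CA3 replicate 1 or 2, rat 1 or rat 3, and in CbG minus CTX without CA1 replicate 3, CA3 replicate 1 or 3, CbG replicate 2, CTX replicate 1 or 3, rat 1, rat 3 or both doubtful arrays (adjusted p up to 0.247). Ptgds was lost without any CA1 or CTX array, CA3 replicate 2, CbG replicate 3, rat 2, rat 3 or both doubtful arrays (adjusted p up to 0.216). Cpne8 in CA1 minus CA3 was lost without CA1 replicate 1 or 3, CA3 replicate 1 or 2 or rat 1 (adjusted p up to 0.225). The exchanged calls of Chn1, Cpne5 and Cpne9, of Ptgs2 in VUL minus RES and of Cpne8 and Hltf in CbG minus CTX were kept whichever array or rat was left out.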

How the data were processed

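RNA of the captured neurons was amplified in 2 cycles and hybridized to Affymetrix RAE230A arrays. What the authors deposited is a MAS5 signal intensity per probe set, made in the GeneChip Operating Software, linear and scaled to 1 target per array. The trimmed mean signal (without the lowest and highest 2%) was about 500.1 in every array, and precision is limited by the number of arrays. Detection calls were not used.

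Each array's log2 signals were centred on their median. After 57 controls were left out, 7535 of 15866 probe sets (47.5%) exceeded that median in 8 of 12 arrays or more and entered the tests. Region means and the rat as a replicate block entered 1 linear model (limma 3.58.1, R 4.3.3), with a call at a Benjamini-Hochberg adjusted p under 0.05 that also reached 1.5-fold. Probe sets under the filter were fitted with all 15866. Fold changes of dim sets rest on uncertain low signals. Rats were paired by replicate number because the study took all 4 regions from each animal. Deviations from region means of same-numbered arrays correlated by -0.0613 on average (18 pairs, -0.887 to 0.19) as labelled and by 0.0856 with the labels exchanged. For arrays of different numbers and regions (36 pairs) the averages were 0.0202 as labelled and -0.0424 with the labels exchanged. The fit was tested on simulated data. Replicates of 1 region are separate rats. Members, lists, tests and the label exchange were chosen with earlier results of these data known. Every member was named. For each tested member the 3 genes of highest correlation were named, and of each list the counts and up to 4 genes. Alternatives were other scalings, floors, filters, priors and tests, and leaving out each array or rat. Plots were made with matplotlib 3.10.9 (Python 3.11.15).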

Additional observations from a re-analysis of the deposited data

Results flagged for a closer look

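For each member probe set, the 6 VUL and the 6 RES arrays were searched for 1 array far from the rest on the log2 scale, 48 groups over both arrangements of the labels, of which chance flags about 1 in 20. Anxa5 was marked 3 times. As labelled, CbG replicate 2 stood apart among VUL arrays at a signal of 133, and the array labelled CA3 replicate 3 stood apart among RES arrays at 238.2. With the labels exchanged, the array labelled CbG replicate 3, then counted with CA3, was apart from the other RES arrays at 484.2. Anxa2 was marked once, in CTX replicate 1 with a signal of 272.8 among RES arrays with the labels exchanged.

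A pair of members differed between the hippocampal and the cerebello-cortical comparison by the test of the difference itself, with the labels exchanged. This test called 24% of all tested probe sets. The difference of CA1 minus CA3 from CbG minus CTX was 3.21 for S100a10 and 1.34 for Anxa3 on the log2 scale. As labelled neither passed, beside 2.07% of all tested probe sets called. The sizes cannot change with the exchange, because CbG and CA3 enter this difference with the same weight.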

How the results depend on the processing

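The counts as labelled depended above all on the 2 doubtful arrays. Members called between VUL and RES, between CA1 and CA3, between CbG and CTX and in the difference of both pairs were 0 each as labelled, 3, 2, 2 and 2 over 10 arrays and 2, 3, 3 and 2 with the labels exchanged. In the same order, the shares of all tested probe sets called were 0%, 1.3%, 0.624% and 2.07% as labelled. They were 17.8%, 10.5%, 25.9% and 14.8% over 10 arrays and 18.5%, 13.5%, 34% and 24% exchanged. As labelled, leaving out 1 array or rat gave 0 to 2 members in each comparison. Over any region, 1 was called as labelled, 0 with no filter, 2 with a filter of 3 of 12 arrays, 4 over 10 arrays, 5 exchanged and 0 to 4 with 1 array or rat left out, where 4 came without rat 3. With the labels exchanged, VUL minus RES gave 2, but 1 with 50 added before log2, 1 with a trend and robust prior, 0 by the methods' paired test after adjustment, 1 by that test unadjusted, 1 by exact permutation and 0 to 3 with 1 array or rat left out (0 without CA3 replicate 2 or rat 2). CA1 minus CA3 gave 3, but 1 with no filter and 0 to 3 with 1 left out (0 without rat 1). CbG minus CTX gave 3 and 2 to 3 with 1 left out, and any region 5 and 4 to 5. Anxa5 lost its call over any region by the F test with no filter (adjusted p = 0.164) and with a filter of 3 of 12 arrays (adjusted p = 0.0515). Without the replicate block, the difference of both pairs called 1 member as labelled and 1 exchanged, against 2 to 3 with 1 left out, and 0 were called over any region as labelled. The block changed no other count of members by over 1.5 times.

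Among single members, directions turned mainly as labelled. S100a10 in VUL minus RES was 0.38 as labelled, -0.16 over 10 arrays, -0.36 exchanged and -0.22 to 0.91 with 1 left out. Anxa7 in CbG minus CTX was 0.13 as labelled, -0.043 without centring, -0.28 over 10 arrays, -0.35 exchanged and -0.46 to 0.45 with 1 left out. With 1 left out, Anxa7 ran from -0.65 to 0.21 in VUL minus RES, from -1.04 to 0.10 in CA1 minus CA3 and from -1.17 to 0.085 in the difference of both pairs. Anxa6 ran from -0.73 to 0.20, from -0.85 to 0.087 and from -0.78 to 0.39 in these and from -0.64 to 0.31 in CbG minus CTX, and Anxa5 from -0.84 to 0.37 in CA1 minus CA3. Under both arrangements, the Anxa6 difference of both pairs (-0.18) was 0.00080 after quantile normalization and 0.015 without centring. Anxa3 1367975_at in CbG minus CTX was 0.078 with signals under 50 set to 50. With the labels exchanged, no called difference of the 5 tested members changed direction under any alternative run. Without centring, the median of all tested probe sets in CbG minus CTX moved by -0.18, and calls split as 994 higher and 1293 lower, against 1577 and 982 with centring. In VUL minus RES they split as 542 and 781, against 772 and 625. With 3 rats and 7 of 12 member probe sets under the filter, small differences of Anxa1, Anxa2 and the other dim sets were not detectable.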
